A study of Mus musculus with 5 samples.

Results

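The genes described here are 8 kinases and adaptors that act next to antigen receptors of lymphocytes: *Lck*, *Fyn*, *Zap70*, *Txk*, *Lat*, *Lcp2*, *Plcg1* and *Prkcq*. They were chosen by symbol from 47729 genes counted in dermal group 2 innate lymphoid cells (dILC2s), and all 8 were present and passed the filter on low counts. The cells were sorted from the skin of female C57BL/6 mice aged 8 to 13 weeks, either wild type (WT) or lacking the recombinase gene *Rag1* in every cell (Rag1-/-), and were not stimulated before RNA was extracted. Each library came from pooled mice, with 3 WT pools of 10 mice (pools 5, 6 and 13) and 2 Rag1-/- pools of 9 mice (pools 2 and 7), while the labels count 16 Rag1-/- mice in all. The labels name the WT cells as innate lymphoid cells type 2 and the Rag1-/- cells as type 3, although the protocol speaks of dermal ILC2s in both genotypes. Rag1-/- mice lack mature T and B cells, and the gate described for flow cytometry kept CD45+ CD90hi cells without CD2 or CD3 signal.

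In T cells, the Src family kinases LCK and FYN phosphorylate the signalling chains of the receptor, and the kinase ZAP-70 then binds these chains. ZAP-70 phosphorylates the scaffold proteins LAT and SLP-76, which gather phospholipase C gamma and Tec family kinases at the membrane. The phospholipase forms inositol trisphosphate and diacylglycerol, and diacylglycerol activates protein kinase C theta. ILC2s carry no rearranged antigen receptor and respond mainly to cytokines, yet share several of these proteins with T cells.

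Total counts on genes were 32939428 to 39477243 in WT libraries and 8050562 and 38922750 in Rag1-/- pools 2 and 7, and levels are given per 1000000 of these counts (CPM). In pool 2, 3 counts, taken as the smallest level the depth can show, equal 0.373 CPM. The lowest count of any of the 8 genes in any library was 87. As a check of the labels, counts of *Rag1* itself were few and no lower in Rag1-/- pools (4, 0 and 5 counts in WT pools 5, 6 and 13, 5 and 48 in Rag1-/- pools 2 and 7; log2 difference 3.53 ± 1.03, edgeR adjusted p = 0.0865). The labels are thus not borne out by a loss of this transcript, and since the part of the gene that the knockout removes is not given in the sources used here, these counts do not settle the genotype. Marker sums moved with genotype over the whole library. The 32 genes of a pan-leukocyte list summed to 1073 to 2703 CPM in WT and to 8979 and 7881 CPM in Rag1-/- libraries, and 18 keratinocyte genes to 31970 to 45770 CPM and to 7865 and 18550 CPM. All 31 leukocyte genes tested had a positive log2 fold change, whereas none of the 18 keratinocyte genes did. A lower number of cells of a type and less RNA per cell cannot be told apart in such bulk libraries.

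Of the 8 genes, 4 rose in Rag1-/- dILC2s, namely *Lck*, *Zap70*, *Lat* and *Fyn*, and none fell (edgeR's quasi-likelihood test, Benjamini-Hochberg adjusted p-value under 0.05 and absolute log2 fold change above 1). Among all 19011 genes tested, 3.57% were higher by this rule and 2.16% lower. In 7 of the 8 genes both Rag1-/- libraries lay above all WT libraries, against 21.9% of all genes, and the exception was *Plcg1*. None of the 8 lay below in both, as did 24.0% of all genes. The median log2 fold change of the 8 genes was 1.71, beside 0.02 over all genes tested. These directions depend on the scaling. With library sizes taken from the leukocyte list, which moved all genes by a median of -2.25, *Lcp2*, *Fyn*, *Plcg1*, *Prkcq* and *Txk* turned negative, and none of the 8 genes was higher past the threshold (0.0842% of all genes). The calls also rest on the full set of libraries, since none of the 8 genes passed with any WT pool or Rag1-/- pool 2 left out (7 of 8 at an unadjusted p-value under 0.05 in each case, edgeR) and 3 passed without Rag1-/- pool 7.

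**Figure D1:**
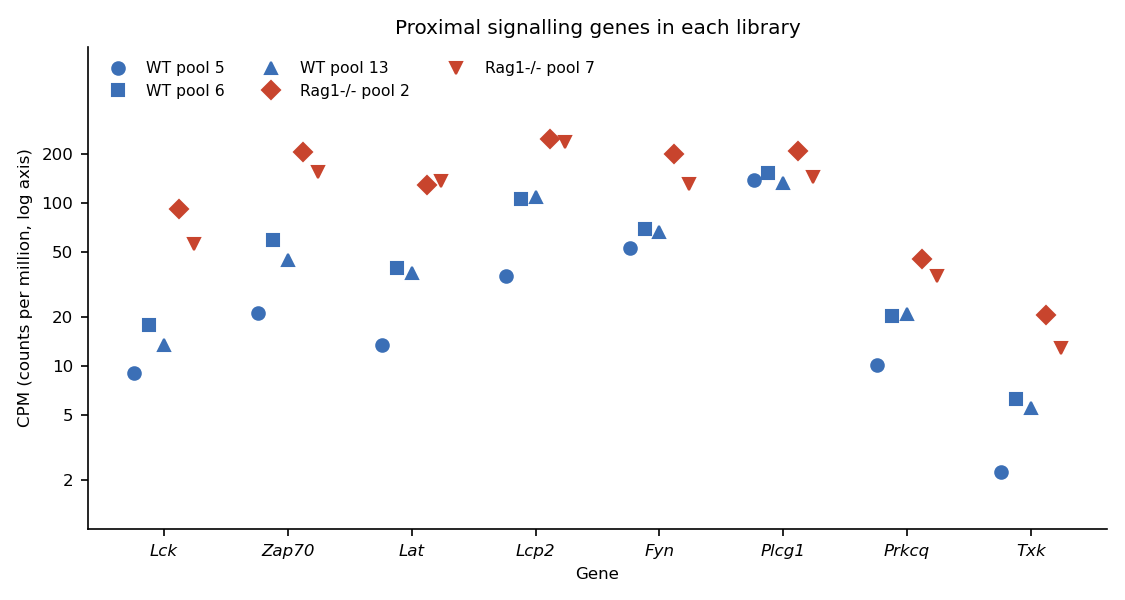
CPM on a log axis for the 8 genes in each of the 5 libraries, with blue symbols for WT and red symbols for Rag1-/- pools. Both Rag1-/- libraries lie above all WT libraries in every gene but *Plcg1*, and WT pool 5 is the lowest library in every gene but *Plcg1*. With counts taken relative to leukocyte genes the order of the genotypes turns in *Lcp2*, *Fyn* and *Prkcq*.

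*Lck* (chromosome 4 of GRCm38, 129548344 to 129573641, minus strand) encodes the Src family kinase that starts antigen-receptor signalling in T cells. It had 9.0, 17.9 and 13.4 CPM in WT pools 5, 6 and 13 and 90.9 and 55.7 CPM in Rag1-/- pools 2 and 7. The groups did not overlap, and the lower Rag1-/- library was 3.11 times the highest WT library. The log2 difference of 2.47 ± 0.34 (Rag1-/- minus WT with its standard error, as in the following, edgeR adjusted p = 0.0306) was the largest of the 8 genes.

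*Fyn* (chromosome 10, 39368855 to 39565381, plus strand) encodes a second Src family kinase, which is also made by many cells outside the immune system. Its levels were 53.1, 68.6 and 66.6 CPM in WT pools 5, 6 and 13 and 200.2 and 130.1 CPM in Rag1-/- pools 2 and 7. The WT libraries lay close together, with a ratio of 1.29 between the highest and the lowest, and both Rag1-/- libraries were higher. *Fyn* rose by 1.42 ± 0.24 on the log2 scale (edgeR adjusted p = 0.0306), and the value was -0.78 with the leukocyte scaling.

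*Zap70* (chromosome 1, 36761798 to 36782818, plus strand) encodes the Syk family kinase that docks on phosphorylated receptor chains. It was measured at 21.1, 59.3 and 44.8 CPM in WT pools 5, 6 and 13 and at 204.1 and 154.2 CPM in Rag1-/- pools 2 and 7. WT pool 5 was far below the other WT pools, and the Rag1-/- libraries were above all of them. *Zap70* rose by 2.13 ± 0.40 on the log2 scale (edgeR adjusted p = 0.0355).

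*Txk* (chromosome 5, 72695978 to 72752777, minus strand), a Tec family kinase of lymphocytes, was the lowest of the 8 genes. It had 2.24, 6.26 and 5.50 CPM in WT pools 5, 6 and 13 and 20.4 and 12.8 CPM in Rag1-/- pools 2 and 7. Although the groups did not overlap, the log2 difference of 1.85 ± 0.46 missed the threshold (edgeR adjusted p = 0.0605), and with the leukocyte scaling it was -0.15.

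*Lat* (chromosome 7, 126363824 to 126369570, minus strand) encodes the membrane scaffold on which the signalling complex is built. There were 13.5, 39.6 and 36.9 CPM in WT pools 5, 6 and 13 and 127.6 and 135.7 CPM in Rag1-/- pools 2 and 7. It was the only member that was lower in Rag1-/- pool 2 than in pool 7, with a ratio of 0.940. *Lat* rose by 2.17 ± 0.43 on the log2 scale (edgeR adjusted p = 0.0371).

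*Lcp2* (chromosome 11, 34046920 to 34092295, plus strand) encodes SLP-76, the cytosolic adaptor that joins LAT to the phospholipase. Its levels ran from 35.7 CPM in WT pool 5 over 105.6 and 109.0 CPM in pools 6 and 13 to 247.2 and 236.9 CPM in Rag1-/- pools 2 and 7. The Rag1-/- libraries were nearly equal, whereas the WT libraries spread over a ratio of 3.06, the widest of the 8 genes. At 1.57 ± 0.44 on the log2 scale the difference missed the threshold (edgeR adjusted p = 0.0799), and it was -0.40 with the leukocyte scaling. *Lcp2* shares 282 exon bases with *4930469K13Rik* on the opposite strand, which had 114 counts over all libraries against 20355 for *Lcp2*, and the library kit does not mark strand.

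*Plcg1* (chromosome 2, 160731300 to 160775760, plus strand) encodes phospholipase C gamma in the form that T cells and most other tissues use. It had 137.8, 151.2 and 132.3 CPM in WT pools 5, 6 and 13 and 206.7 and 144.7 CPM in Rag1-/- pools 2 and 7. Rag1-/- pool 7 fell inside the WT range, so that the groups overlapped. Its fold difference of 1.27 (0.35 ± 0.21 on the log2 scale, edgeR adjusted p = 0.345) was the smallest of the 8 genes. *Plcg1* shares 379 exon bases with *Zhx3* and 248 with the antisense gene *Gm27206* on the opposite strand, and reads there cannot be assigned to a strand with this library kit. Over all libraries *Plcg1* had 22972 counts, *Zhx3* 7757 and *Gm27206* 79.

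*Prkcq* (chromosome 2, 11172108 to 11301222, plus strand) encodes protein kinase C theta, which links the receptor to NF-kappa B. Its values were 10.1, 20.1 and 20.8 CPM in WT pools 5, 6 and 13 and 45.3 and 35.6 CPM in Rag1-/- pools 2 and 7. Both Rag1-/- libraries were above the WT range. The log2 difference, 1.28 ± 0.33, missed the threshold as well (edgeR adjusted p = 0.0657) and was -0.79 with the leukocyte scaling. With DESeq2, the tool named in the methods, *Txk*, *Lcp2* and *Prkcq* were called as well. By that test 7 of the 8 genes were called higher, as were 7.40% of all genes given an adjusted p-value.

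Sequences upstream of the start sites are shown for *Lck*, *Zap70* and *Lat*, the 3 genes with the largest differences, and for *Plcg1*, the gene with the smallest. They were taken from RefSeq on GRCm38.p6, where all 8 genes had a window, and end before the first annotated exon. Capitals mark the letters of motifs that were searched on both strands. The letters AGGAAG stand for the core of ETS sites. For RUNX factors the letters were TGTGGT. The core of the cAMP response element was searched as TGACGT. Letters of the GC box were GGGCGG. Those of the sites of GATA factors, AGATAA, were absent from these 4 windows.
Lck, chr4:129573642-129573891, minus strand: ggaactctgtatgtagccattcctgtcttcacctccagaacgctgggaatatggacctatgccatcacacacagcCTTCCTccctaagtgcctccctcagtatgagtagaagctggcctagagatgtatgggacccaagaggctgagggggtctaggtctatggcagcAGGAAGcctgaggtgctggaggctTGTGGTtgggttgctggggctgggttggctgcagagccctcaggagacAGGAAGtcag
Zap70, chr1:36761548-36761797, plus strand: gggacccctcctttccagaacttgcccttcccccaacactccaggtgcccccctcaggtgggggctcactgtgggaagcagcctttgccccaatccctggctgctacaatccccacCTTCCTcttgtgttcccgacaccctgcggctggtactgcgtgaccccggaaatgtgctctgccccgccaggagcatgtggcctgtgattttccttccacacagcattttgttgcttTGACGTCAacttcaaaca
Lat, chr7:126369571-126369818, minus strand: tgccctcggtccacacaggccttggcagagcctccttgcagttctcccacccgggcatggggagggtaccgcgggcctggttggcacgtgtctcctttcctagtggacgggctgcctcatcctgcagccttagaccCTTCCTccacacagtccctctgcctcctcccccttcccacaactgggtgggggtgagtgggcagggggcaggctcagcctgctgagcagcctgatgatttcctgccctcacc
Plcg1, chr2:160731060-160731299, plus strand: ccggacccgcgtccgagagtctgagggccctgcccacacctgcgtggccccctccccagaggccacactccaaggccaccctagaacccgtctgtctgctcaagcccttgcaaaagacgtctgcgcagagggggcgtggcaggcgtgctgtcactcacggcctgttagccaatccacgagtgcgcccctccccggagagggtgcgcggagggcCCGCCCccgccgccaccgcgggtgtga

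The *Lck* window held the ETS letters at 3 places, 175, 82 and 10 bases before the start site, and the RUNX letters once, 58 bases before it. In *Zap70* the cAMP response element is the palindrome TGACGTCA, read at 18 bases before the start on one strand and at 16 on the other. *Plcg1* held the GC box and none of the other motifs, and 71.2% of its window was G or C, beside 56.4% for *Lck* and a median of 52.4% over 32851 windows. The 8 genes had 12 windows in all, as some have several start sites. The ETS letters were in 8 of the 12 windows, in every gene but *Fyn* and *Plcg1*, and in 29.5% of all windows. The RUNX letters were in 3 of the 12 (*Lck*, *Txk* and *Zap70*, 14.0% of all windows), the GATA letters in 2 (*Lcp2* and *Txk*, 9.99%), the cAMP response element in 2 (*Txk* and *Zap70*, 6.47%) and the GC box in 4 (*Fyn*, *Lck*, *Plcg1* and *Prkcq*, 32.7%). The motifs were chosen after the sequences were seen, and a match of letters does not show that a factor binds there.

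Per length, the order of the 8 genes differed between the genotypes. Levels were expressed as CPM per kilobase of transcript (RPKM), with the transcript lengths given in the deposited table. In WT the mean levels ran from *Plcg1* (32.0 ± 2.22, SD, n = 3) over *Lat* (24.7 ± 11.8), *Lcp2* (22.9 ± 11.4), *Zap70* (18.6 ± 8.58) and *Fyn* (17.6 ± 2.37) to *Lck* (6.14 ± 2.03), *Prkcq* (4.75 ± 1.67) and *Txk* (1.99 ± 0.910 RPKM). The ranges of the 5 highest overlapped with their neighbours in this order, and so did those of *Lck* and *Prkcq*, while *Fyn* was above *Lck* and *Prkcq* above *Txk* in all WT libraries. In Rag1-/- dILC2s *Lat* was the highest (108 ± 4.72, SD, n = 2), followed by *Zap70* (79.8 ± 15.7), *Lcp2* (66.4 ± 1.99), *Fyn* (46.4 ± 13.9), *Plcg1* (40.1 ± 9.98), *Lck* (33.6 ± 11.4), *Prkcq* (11.3 ± 1.93) and *Txk* (7.08 ± 2.28 RPKM). There the ranges of *Fyn* and *Plcg1* and those of *Plcg1* and *Lck* overlapped, and the other neighbours were apart. *Plcg1* thus stood first in WT libraries, whereas 4 of the 8 genes were above it in Rag1-/- libraries. Both orders are of whole libraries, with transcripts of keratinocytes and other cells included. The part of those cells in the orders was not tested.

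The spread among the WT pools was large for some members and small for others. WT pool 5 was the lowest WT library in 7 of the 8 genes, with ratios of the highest to the lowest WT pool between 1.99 (*Lck*) and 3.06 (*Lcp2*) in 6 of them. *Fyn* (1.29) and *Plcg1* (1.14) varied little. Pool 5 also had the lowest sum of the leukocyte list, 1073 CPM against 2639 and 2703 CPM in the other WT pools, and the highest sum of the keratinocyte list, 45770 CPM against 31970 and 36190 CPM. Between the Rag1-/- pools, the ratio of pool 2 to pool 7 ranged from 0.940 (*Lat*) to 1.63 (*Lck*).

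Counts were next set against those of the leukocyte list in each library. The counts of each gene are those of the whole library, so transcripts from keratinocytes and other cells remain in them. The ratios are therefore not levels within leukocyte RNA alone. For *Lck* there were 8.38, 6.62 and 5.06 counts per 1000 leukocyte counts in WT pools 5, 6 and 13 and 10.1 and 7.07 in Rag1-/- pools 2 and 7, so that the genotypes overlapped. *Zap70* had 19.7, 21.9 and 17.0 in WT and 22.7 and 19.6 in Rag1-/- libraries, again with overlap. *Lat* (12.5 to 14.7 in WT, 14.2 and 17.2 in Rag1-/-) and *Txk* (2.08 to 2.32 and 2.27 and 1.63) overlapped too. On this scale, then, the 3 genes with the largest CPM differences did not separate the genotypes.

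The other 4 genes were lower in both Rag1-/- libraries than in all WT libraries when counted this way, and none of the 8 was higher in both. Over all genes tested, 86.9% were lower without overlap on this scale and 0.615% higher, so that being lower was its common state. *Plcg1* had 128.5, 55.9 and 50.1 counts per 1000 leukocyte counts in WT pools 5, 6 and 13 and 23.0 and 18.4 in Rag1-/- pools 2 and 7. *Fyn* had 49.4, 25.4 and 25.2 in WT and 22.3 and 16.5 in Rag1-/- libraries, *Lcp2* 33.2 to 41.3 and 27.5 and 30.1, and *Prkcq* 7.45 to 9.42 and 5.05 and 4.52. In the fit with this scaling *Plcg1* fell by 1.92 on the log2 scale (standard error 0.80, adjusted p = 0.0282, edgeR), against a median of -2.23 over all genes, of which 68.7% were lower past the threshold. *Fyn* (-0.78, adjusted p = 0.330), *Prkcq* (-0.79, adjusted p = 0.331) and *Lcp2* (-0.40, adjusted p = 0.623) did not pass, nor did *Lck* (0.36, adjusted p = 0.648), *Lat* (0.20, adjusted p = 0.806), *Zap70* (0.11, adjusted p = 0.886) and *Txk* (-0.15, adjusted p = 0.862, edgeR for each). The part of the unequal content of leukocyte and keratinocyte RNA in the CPM differences was not tested.

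**Figure D2:**
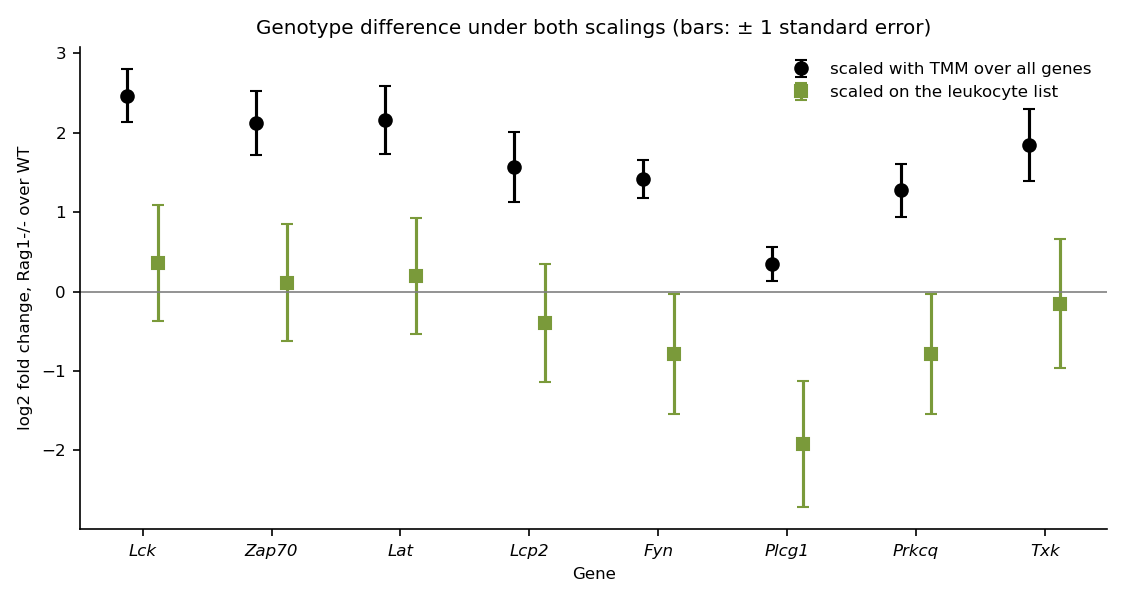
Log2 fold change of Rag1-/- over WT for the 8 genes with standard errors, in black with scaling over all genes (trimmed mean of M values, TMM) and in green with library sizes from the leukocyte list. All 8 values are positive with TMM, and 5 are negative with the leukocyte scaling (*Lcp2*, *Fyn*, *Plcg1*, *Prkcq* and *Txk*).

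**Figure D3:**
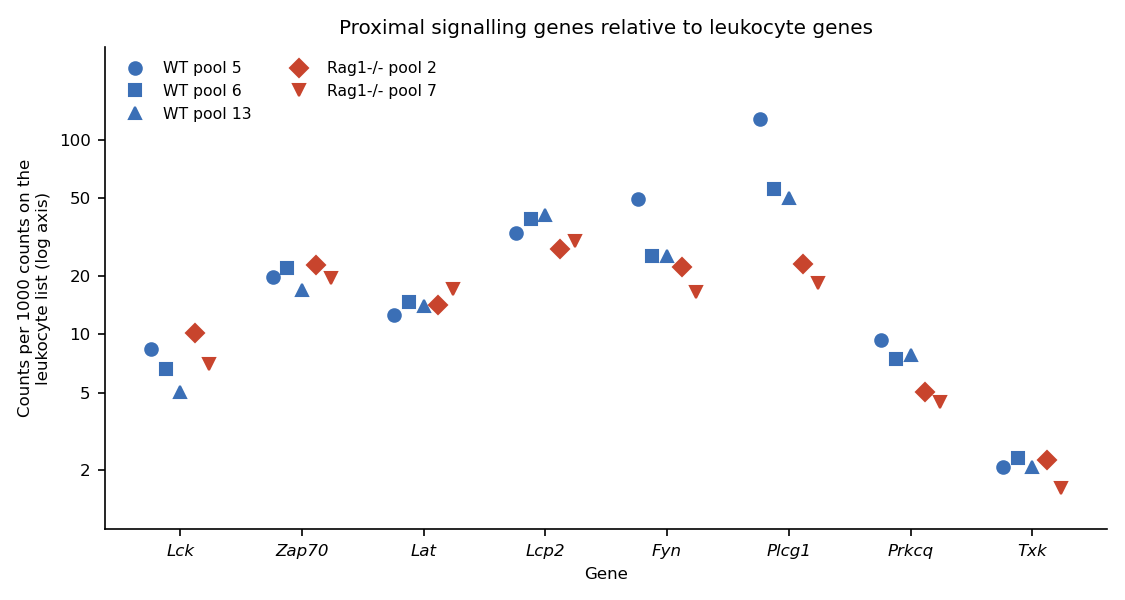
Counts of the 8 genes per 1000 counts on the leukocyte list, on a log axis, in each library. The genotypes overlap in *Lck*, *Zap70*, *Lat* and *Txk*, and the Rag1-/- libraries lie below the WT libraries in *Lcp2*, *Fyn*, *Plcg1* and *Prkcq*, as do 86.9% of all genes tested on this scale.

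Members were also compared with relatives of their own family within each library, a comparison that no scaling of the library can move. The ratio of *Lck* to *Fyn* per length was 0.277, 0.425 and 0.327 in WT pools 5, 6 and 13 and 0.740 and 0.698 in Rag1-/- pools 2 and 7, a log2 difference of 1.09 without overlap. Against *Yes1*, a Src family kinase of most tissues, *Lck* had ratios of 0.141, 0.283 and 0.204 in WT and of 3.04 and 1.61 in Rag1-/- libraries. The ratio of *Zap70* to its relative *Syk* was 1.36, 3.78 and 2.67 in WT and 8.87 and 6.97 in Rag1-/- libraries. *Txk* had 0.0702, 0.188 and 0.192 of the level of *Tec* in WT and 0.995 and 0.501 in Rag1-/- libraries. In each of these 4 pairs both Rag1-/- libraries were above all WT libraries, which gave p = 0.1 in an exact two-sided permutation test of the 10 splits, the smallest p-value this design allows (adjusted p = 0.2 over the 8 pairs compared).

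Other pairs overlapped between the genotypes or differed less. *Plcg1* to *Plcg2*, the form of B cells and myeloid cells, gave 5.04, 5.43 and 4.10 in WT and 6.41 and 4.55 in Rag1-/- libraries (exact permutation p = 0.5, log2 difference 0.16). *Lat* to *Lat2* (log2 difference 0.76, exact permutation p = 0.3) and *Prkcq* to *Prkch* (0.91, exact permutation p = 0.2) were higher in both Rag1-/- libraries than in all WT libraries, but not by enough against the spread of the WT pools to give the smallest p-value.

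As shares of each family, length-scaled counts of *Lck* made up 5.95% to 8.68% of the Src family in WT and 22.2% and 15.8% in Rag1-/- pools 2 and 7. *Yes1* took 30.7% to 42.3% in WT and 7.29% and 9.84% in Rag1-/- libraries. *Zap70* made up 57.7% to 79.1% of the Syk family in WT and 89.9% and 87.4% in Rag1-/- libraries. *Prkcq* made up 2.48% to 6.55% of protein kinase C in WT and 10.4% and 10.1% in Rag1-/- libraries, where *Prkcd* stayed the most abundant form in every library. The shares are of whole libraries, with transcripts of keratinocytes and other cells included. The part of the cell mix in the shares was not tested.

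**Figure D4:**
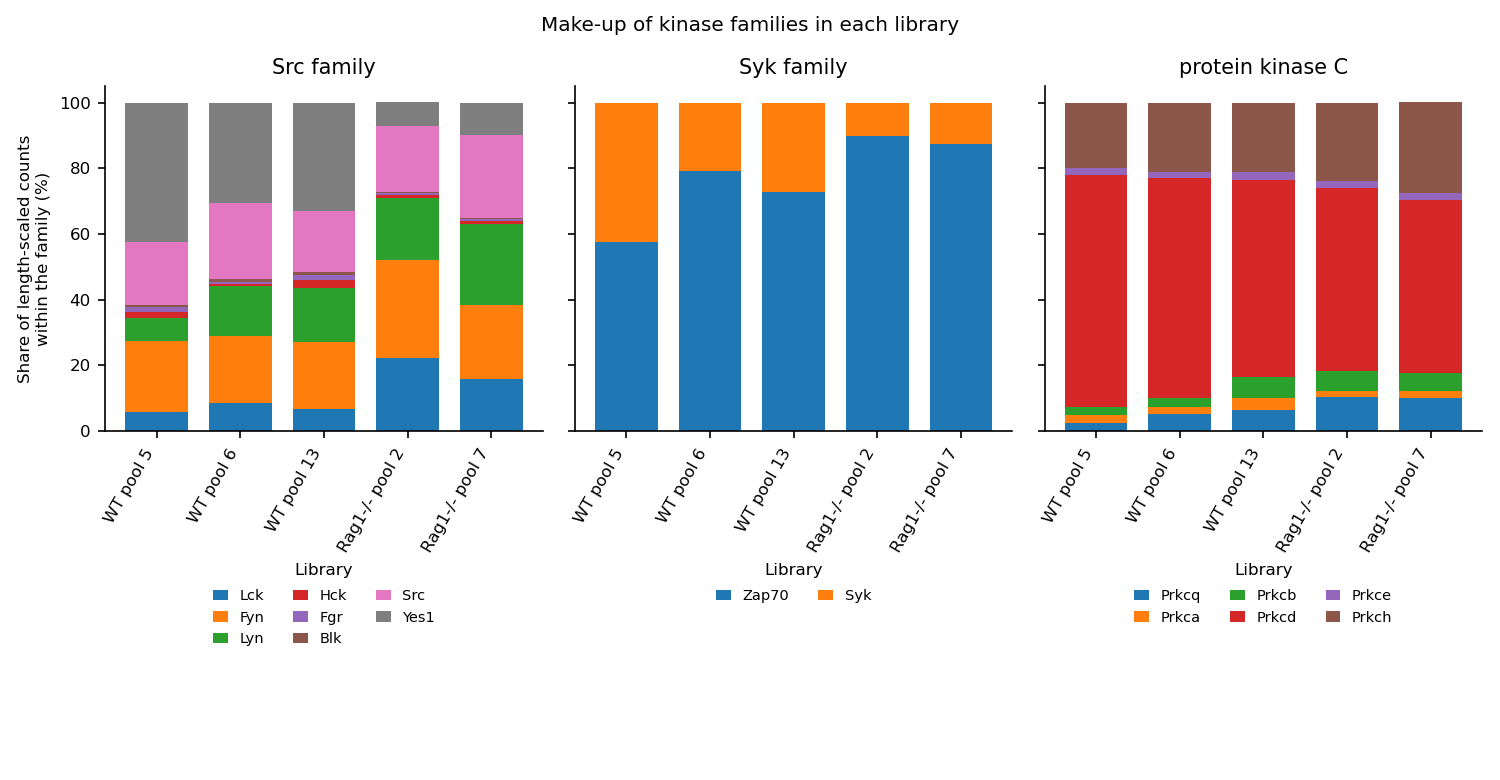
Shares of the Src and Syk families and of 6 protein kinase C genes in each library, in percent of their length-scaled counts. *Lck* takes 22.2% and 15.8% of the Src family in Rag1-/- pools 2 and 7 and at most 8.68% in WT, and *Prkcd* forms most of protein kinase C in all 5 libraries. Counts are of whole libraries, so transcripts of keratinocytes and other cells are included.

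The pathway around the 8 genes was examined with 4 lists of 61 genes, ordered by role, all of which were tested. Of these, 19 rose in Rag1-/- dILC2s and none fell, which is 31.1% against 5.73% of all genes called in either direction, and their median log2 fold change was 0.68. With the leukocyte scaling none of them was higher past the threshold and 27 were lower, beside 68.7% of all genes.

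Among 11 other kinases of the Src, Syk and Tec families 1 rose, and the median log2 fold change was 0.02. This was *Src* itself, with 66.0 ± 16.1 CPM in WT (SD, n = 3) against 149.7 ± 8.47 CPM in the Rag1-/- pools (SD, n = 2). The log2 difference of 1.21 (edgeR adjusted p = 0.0383) became -0.93 with the leukocyte scaling. *Syk* (log2 fold change 0.53, adjusted p = 0.122) and *Tec* (-0.40, adjusted p = 0.278, edgeR for both) did not pass with scaling over all genes. *Yes1*, named after its values were seen, had an adjusted p-value of 0.0368 (edgeR) with a log2 fold change of -0.96, just inside the limit on the fold, from 77.0 to 79.6 CPM in WT to 36.4 and 42.1 CPM in Rag1-/- libraries.

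Of 15 other adaptors 6 rose, and the median difference of the list was 1.27 on the log2 scale. *Grap*, a Grb2-like adaptor of lymphocytes, went from 17.0 ± 6.22 CPM in WT (SD, n = 3) to 86.4 ± 2.74 CPM in the Rag1-/- pools (SD, n = 2), which is 2.37 on the log2 scale (edgeR adjusted p = 0.0306). *Skap1*, which couples the receptor to integrins, *Sh2d2a*, an adaptor that binds LCK, and *Grap2*, which encodes the GADS protein between LAT and SLP-76, rose by 2.30, 2.11 and 1.84 on the log2 scale. The remaining called genes were *Lat2* (1.54) and *Grb2* (1.22). With the leukocyte scaling *Grap* (0.33), *Skap1* (0.34) and *Sh2d2a* (0.10) kept a positive sign and *Grap2* (-0.17), *Lat2* (-0.62) and *Grb2* (-0.93) did not, and none of the 6 passed.

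Among 17 other effectors 3 rose, and the median was 0.43. Among them, *Map4k1*, a kinase that restrains SLP-76, rose by 2.29 and *Vav1*, the exchange factor of haematopoietic cells, by 1.93 on the log2 scale (edgeR adjusted p = 0.0306 for both). *Vav1* had 12.9, 23.3 and 23.2 CPM in WT pools 5, 6 and 13 and 91.3 and 57.0 CPM in Rag1-/- pools 2 and 7. With the leukocyte scaling *Map4k1* (0.19) stayed positive and *Vav1* turned to -0.17. Relatives of these genes and of the members differed less, with log2 differences of 0.53 for *Vav2*, -0.57 for *Vav3*, 0.17 for *Plcg2* and 0.43 for *Prkch*, none of them past the threshold. *Itpkb*, which phosphorylates inositol trisphosphate, had a log2 difference of 1.04 and missed the threshold (edgeR adjusted p = 0.0509).

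The inhibitors gave the highest count, with 9 of 18 genes higher, none lower and a median of 1.34. *Csk*, the kinase that switches off Src family members, went from 73.7, 106.5 and 93.0 CPM in WT pools 5, 6 and 13 to 253.5 and 247.0 CPM in Rag1-/- pools 2 and 7, or 1.49 ± 0.22 on the log2 scale (edgeR adjusted p = 0.0306). *Sit1*, a membrane adaptor of lymphocytes, rose by 2.44, *Dok2* by 2.23, *Inpp5d*, which encodes the lipid phosphatase SHIP, by 1.74 and *Dgkz*, which removes diacylglycerol, by 1.04 on the log2 scale. *Ptpn22* (1.88, adjusted p = 0.0551), *Pag1* (0.97, adjusted p = 0.129) and *Ptpn6* (0.64, adjusted p = 0.0974, edgeR for each) did not pass. With the leukocyte scaling *Csk* (-0.68), *Inpp5d* (-0.34) and *Dgkz* (-1.22) turned negative, *Sit1* (0.40) and *Dok2* (0.22) did not, and none of the 18 was higher past the threshold.

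**Figure D5:**
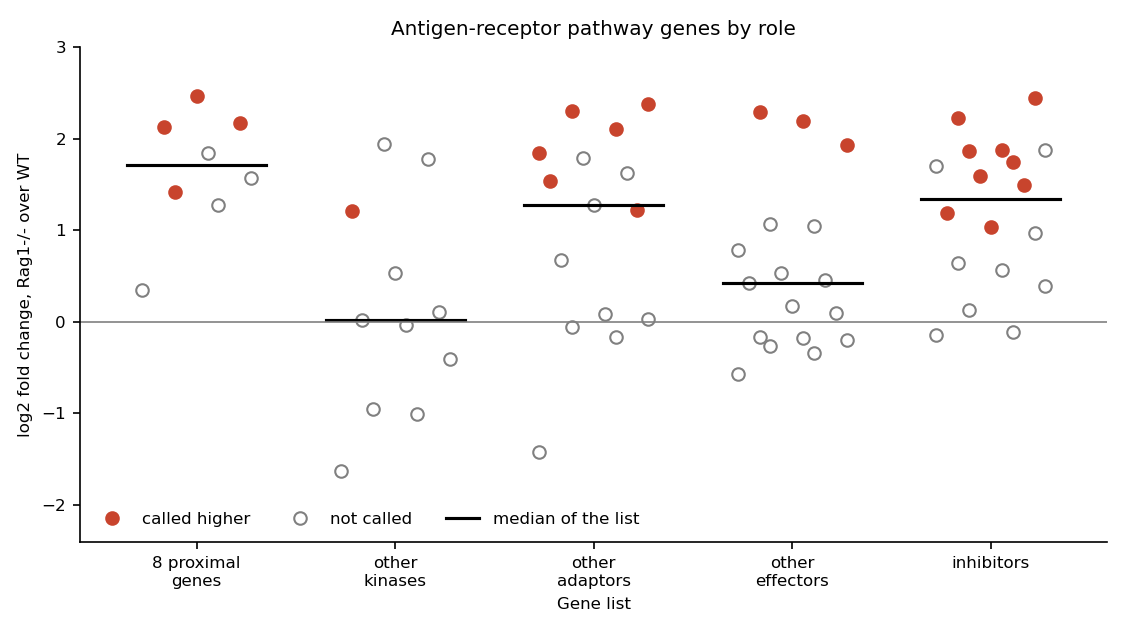
Log2 fold change of Rag1-/- over WT (TMM scaling) for the 8 genes and 4 lists of pathway genes, each point a gene, with red points for genes called higher and a bar at the median of each list. The medians are 1.71 for the 8 genes, 0.02 for other kinases, 1.27 for other adaptors, 0.43 for other effectors and 1.34 for inhibitors, and with the leukocyte scaling all 5 medians are negative.

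Markers of other lymphocytes were read beside the 8 genes. A list of 14 T cell genes summed to 67.1 to 131.5 CPM in WT and to 390.4 and 329.6 CPM in Rag1-/- pools 2 and 7, and 4 of its 12 tested genes rose (*Cd3g*, *Cd247*, *Trac* and *Trbc2*). *Cd3e* was at 5.46 to 7.98 CPM in WT and at 9.44 and 7.43 CPM in Rag1-/- libraries, which overlapped, and *Cd8b1* had no count in 4 of the 5 libraries. NK and ILC1 genes summed to 13.1 to 21.3 CPM in WT and to 65.2 and 86.8 CPM in Rag1-/- libraries, with 3 of 8 tested genes higher. The 8 genes of the ILC3 list all had positive log2 fold changes, and 5 rose (*Il23r*, *Il22*, *Il17f*, *Ltb* and *Cxcr6*). The log2 fold changes of these 5 were 3.53, 5.35, 5.23, 2.54 and 2.28. In WT the mean levels of *Il22* and *Il17f* were low, at 0.37 and 0.72 CPM. Of 12 ILC2 genes 4 rose and none fell, and *Gata3*, the transcription factor that defines ILC2s, did not pass at 198.8 to 319.4 CPM in WT and 558.1 and 369.4 CPM in Rag1-/- libraries. Beside these counts, 3.57% of all genes tested and 24 of the 31 tested genes of the leukocyte list were called higher. Median log2 fold changes were 1.23 for the T cell list, 2.14 for NK and ILC1, 3.03 for ILC3 and 1.81 for ILC2 genes. The leukocyte list had a median of 2.05. The leukocyte list itself summed to 1073 to 2703 CPM in WT and to 8979 and 7881 CPM in Rag1-/- pools 2 and 7. Higher marker sums in CPM thus do not show a larger share of T or NK cells among the leukocytes. The part of other lymphocytes in the levels of the 8 genes was not tested.

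Genes with a profile like that of the 8 genes were found by the distance of their log2 CPM, centred over the 5 libraries, from the median profile of the 8 genes. The nearest were *Mrgpre*, *Fgd3*, *Nckap1l*, *Il10ra* and *Rhof*, with root mean square distances of 0.0540 to 0.0819 on the log2 scale. Of the 8 genes themselves *Txk* (0.130) and *Lcp2* (0.175) were closest to their common profile and *Plcg1* (0.870) farthest. *Nckap1l*, a gene of the leukocyte list that encodes a subunit of the actin-regulating WAVE complex, had 35.2, 94.6 and 77.9 CPM in WT pools 5, 6 and 13 and 283.2 and 217.6 CPM in Rag1-/- pools 2 and 7. Among all genes tested, *Txk* came at rank 22 in this distance and *Plcg1* at rank 4571.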

How the data were processed

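RNA of sorted dILC2s was sequenced in 5 libraries (single reads of 50 bases, TruSeq RNA kit v2, which does not mark strand). The raw counts deposited by the authors came from featureCounts 1.5.0-p1 after alignment with STAR 2.5 on GRCm38. They also deposited a normalized signal per symbol, from its values the counts divided by size factors. The deposited labels and the methods name different releases of the annotation.

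Here R 4.3.3 was used, and edgeR 4.0.16 served to filter the counts by expression, scale them by TMM and compare the genotypes over 19011 genes by the quasi-likelihood test. The F statistic and the fold change gave the standard errors. Libraries were mapped by title. The test was checked on simulated counts. Alternatives were DESeq2 1.42.0, limma 3.58.1 on the signal (pseudocount 1), other scalings, filters and thresholds, thinning, and each library left out.

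The members and lists were chosen with earlier results of these data known. Named genes were the 8 members, up to 5 called genes per list and direction with the smallest p-value, 12 fixed pathway genes and the 5 nearest profiles. That pools are separate samples comes from the methods. The standard errors, from the quasi-likelihood fit, and the SDs include the spread between pools of a genotype, whereas floors cover counting error only. Gene overlaps were read from GENCODE M21. Protein sequences were not used here, and some genes of the pathway lists are not reported here by name.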

Additional observations from a re-analysis of the deposited data

How the results depend on the processing

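Under the 10 other settings that kept all libraries and a scaling over all genes, each of the 8 genes kept a positive log2 fold change. The same held with each library left out. Among the 10 settings, the adjusted p-value alone, the test for more than 1 on the log2 scale and a robust fit repeat the main estimates. Those settings add no separate support for the sign. DESeq2 called 7 of the 8 genes and 2464 of all genes (1216 higher, 1248 lower, beside 679 and 411 with edgeR), and no filter on low counts gave 7 and 2645. Testing for more than 1 on the log2 scale called 0 of the 8, 0 of the 61 pathway genes and 0 of all genes (6, 21 and 1635 at an unadjusted p-value under 0.05, edgeR). With 1 library left out, 0 to 3 of the 8 genes, 0 to 18 pathway genes and 0 to 2409 of all genes passed, and every number above 0 came without Rag1-/- pool 7. A lone Rag1-/- library is there assumed to vary like the WT pools. The cause of these losses was not tested.

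Scaled on the leukocyte list, 1 of the 8 genes (*Plcg1*, lower) and 13069 of all genes passed, 16 higher. The log2 fold changes that turned negative were -0.40 for *Lcp2*, -0.78 for *Fyn*, -1.92 for *Plcg1*, -0.79 for *Prkcq* and -0.15 for *Txk*. In settings added after the data were seen, this scaling without Rag1-/- pool 2 gave -0.33, -1.01, -2.09, -0.87 and -0.41, with 0 of the 8, 0 pathway and 0 of all genes called (0, 8 and 4662 at an unadjusted p-value under 0.05), and without pool 7 -0.46, -0.58, -1.76 and -0.71 for the first 4 and 0.07 for *Txk*, with 0, 0 and 710 called. Leaving those added settings aside, the adjusted p-value of *Lck* ran from 3.52e-08 to 0.648 and that of *Plcg1* from 0.0282 to 1. No paired analysis was possible because the genotypes share no replicate numbers. The shallow Rag1-/- pool 2 limits precision for low genes, and thinning all libraries to its depth called 6 of the 8 genes.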
